A study of Mus musculus with 45 samples.

Results

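The genes described here are 7 genes of the glucagon-secreting alpha cells of the pancreatic islet: Gcg, Irx1, Irx2, Ttr, Slc7a2, Slc38a5 and Gc. They were picked by gene symbol, all 7 were found among the 22904 genes of the deposited matrix, and all 7 were among the 20306 genes that passed the filter on low counts. Islets of Langerhans were taken from female and male mice of 3 inbred strains: C57BL/6J, a common laboratory strain, CAST/EiJ, a wild-derived strain, and NZO/HlLtJ, an obese strain prone to diabetes. From 6 weeks of age mice of each strain and sex ate either a control diet (10% fat, with fiber) or one rich in fat and sugar (44% fat, with fiber), and tissue was collected at 16 weeks. The 12 groups held 4 libraries each, apart from 3 in each of the CAST/EiJ male group on 10% fat and both male NZO/HlLtJ groups, giving 45 libraries of polyadenylated RNA. The labels name no allele or agent besides strain and diet. Whether every library is from a separate mouse is not stated, and p-values cover only how much these libraries vary.

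Alpha cells lie among the insulin-secreting beta cells and the somatostatin-secreting delta cells of the islet, and the glucagon they release makes the liver put out glucose. Gcg encodes proglucagon, from which prohormone convertase 2 (Pcsk2) cuts glucagon. Irx1 and Irx2 encode Iroquois homeodomain transcription factors. Ttr (transthyretin) carries thyroid hormone and, with retinol-binding protein, vitamin A, and Gc encodes the vitamin D-binding protein. Both are made in quantity by the liver as well as by alpha cells. Slc7a2 takes up cationic amino acids such as arginine, and Slc38a5 takes up glutamine and related neutral amino acids, on which alpha cells are known to depend for growth when glucagon action on the liver is blocked.

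Library totals ranged from 57.2 to 110 M estimated counts, with a median of 84.4 M, so that even Irx1, the lowest of the 7 genes, rested on at least 265 counts in a library. Levels are given as CPM, counts in each library relative to its total (counts per 1e6), after scaling by a composition factor (TMM, trimmed mean of M-values) for each library. In 5 libraries, transcripts that mark another strain were found: replicates 1, 2 and 4 of CAST/EiJ females on 44% fat, with medians of 9.48%, 3.61% and 3.77% of the C57BL/6J level of 16 such markers, replicate 2 of C57BL/6J females on 44% fat, with 1.88% of the NZO/HlLtJ level of 12 markers, and replicate 3 of NZO/HlLtJ males on 44% fat, with 1.37% of the CAST/EiJ level of 21 markers. The CAST/EiJ libraries named also had 3.66%, 2.85% and 1.89% of the NZO/HlLtJ level of 27 markers, in the same order. The NZO/HlLtJ male also had 1.88% of the C57BL/6J level of 9 markers. The strain that these transcripts came from was not determined. Results that change without these 5 libraries are given with and without them. Sample codes begin with 76, 80 or 89, called the number series here, whose meaning is not given. Among NZO/HlLtJ libraries, series 80 held no females on 44% fat and no males on 10% fat, and series 89 no females on 10% fat and no males on 44% fat.

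The promoters of 3 members are shown because these genes turned out to follow different courses over the groups. Gcg and Irx2 moved together, and Gc did not follow them. With the sexes averaged, Gc rose with Ttr on the diet rich in fat and sugar in NZO/HlLtJ. The strain differences on the control diet had opposite signs for Gc and Ttr. Each line gives the 250 bases before the annotated start, 5′ to 3′ along the gene, from RefSeq on GRCm38.p6, with capitals at TAAT or its reverse complement ATTA, the core bound by many homeodomain proteins.
Gcg, chr2:62483654-62483903, minus strand: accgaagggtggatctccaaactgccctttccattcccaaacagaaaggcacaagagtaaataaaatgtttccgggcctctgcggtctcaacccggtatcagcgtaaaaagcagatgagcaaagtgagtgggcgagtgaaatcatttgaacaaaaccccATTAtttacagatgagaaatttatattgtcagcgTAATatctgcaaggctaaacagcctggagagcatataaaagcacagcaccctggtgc
Irx2, chr13:72628570-72628819, plus strand: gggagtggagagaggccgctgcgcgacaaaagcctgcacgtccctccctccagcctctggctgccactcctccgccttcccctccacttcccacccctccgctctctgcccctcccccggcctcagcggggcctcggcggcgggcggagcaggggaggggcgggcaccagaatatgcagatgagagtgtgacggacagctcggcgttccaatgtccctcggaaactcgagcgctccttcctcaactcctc
Gc, chr5:89457899-89458148, minus strand: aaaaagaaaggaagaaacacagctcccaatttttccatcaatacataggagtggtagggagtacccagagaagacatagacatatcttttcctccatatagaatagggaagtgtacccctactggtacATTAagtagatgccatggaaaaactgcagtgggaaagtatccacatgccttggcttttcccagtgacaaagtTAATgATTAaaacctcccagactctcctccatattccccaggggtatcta

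Searched on both strands, TAAT matched at 2 places in the Gcg window and at 3 in the Gc window, and it was not found in the Irx2 window. A window of this length held TAAT in 54.9% of 32851 promoters. TATAAA, the letters of a TATA box, occurred at 2 places in the Gcg window, the nearest beginning 24 bases before the start, and 12.4% of promoters held it. GTTAAT, part of the site that HNF1 factors bind and overlapping TAAT, occurred at 1 place in the Gc window, beginning 52 bases before the start, and 6.43% of promoters held it. ACANNTGT, where N is any base, was found in none of the 3 windows, and 6.31% of promoters held it. The Irx2 window was 68.4% G and C, against 44.8% for Gcg and 42.0% for Gc.

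Gcg spans chromosome 2 from 62474530 to 62483650 on the minus strand in GRCm38 (GENCODE M21). Irx1 (chromosome 13, 71957921 to 71963723, minus strand) and Irx2 (chromosome 13, 72628820 to 72634198, plus strand) belong to 1 gene cluster, 665 kb apart. Gc spans chromosome 5 from 89417522 to 89457898 and Slc38a5 chromosome X from 8271133 to 8280179. Slc7a2 spans chromosome 8 from 40862396 to 40922308, and the antisense lincRNA Gm26584 overlaps its start. Whether counting used strand is not stated, so reads of these overlapping genes cannot be told apart.

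Per kilobase of exon, the median level over the 45 libraries was 15895 CPM per kb for Gcg and 1189.8 for Ttr. Gc followed at 56.8, Slc7a2 at 52.3, Slc38a5 at 10.96, Irx2 at 5.59 and Irx1 at 4.51 CPM per kb. The hormone gene thus stood far above the transcription factor genes Irx1 and Irx2 on the scale of level per length.

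**Figure D1:**
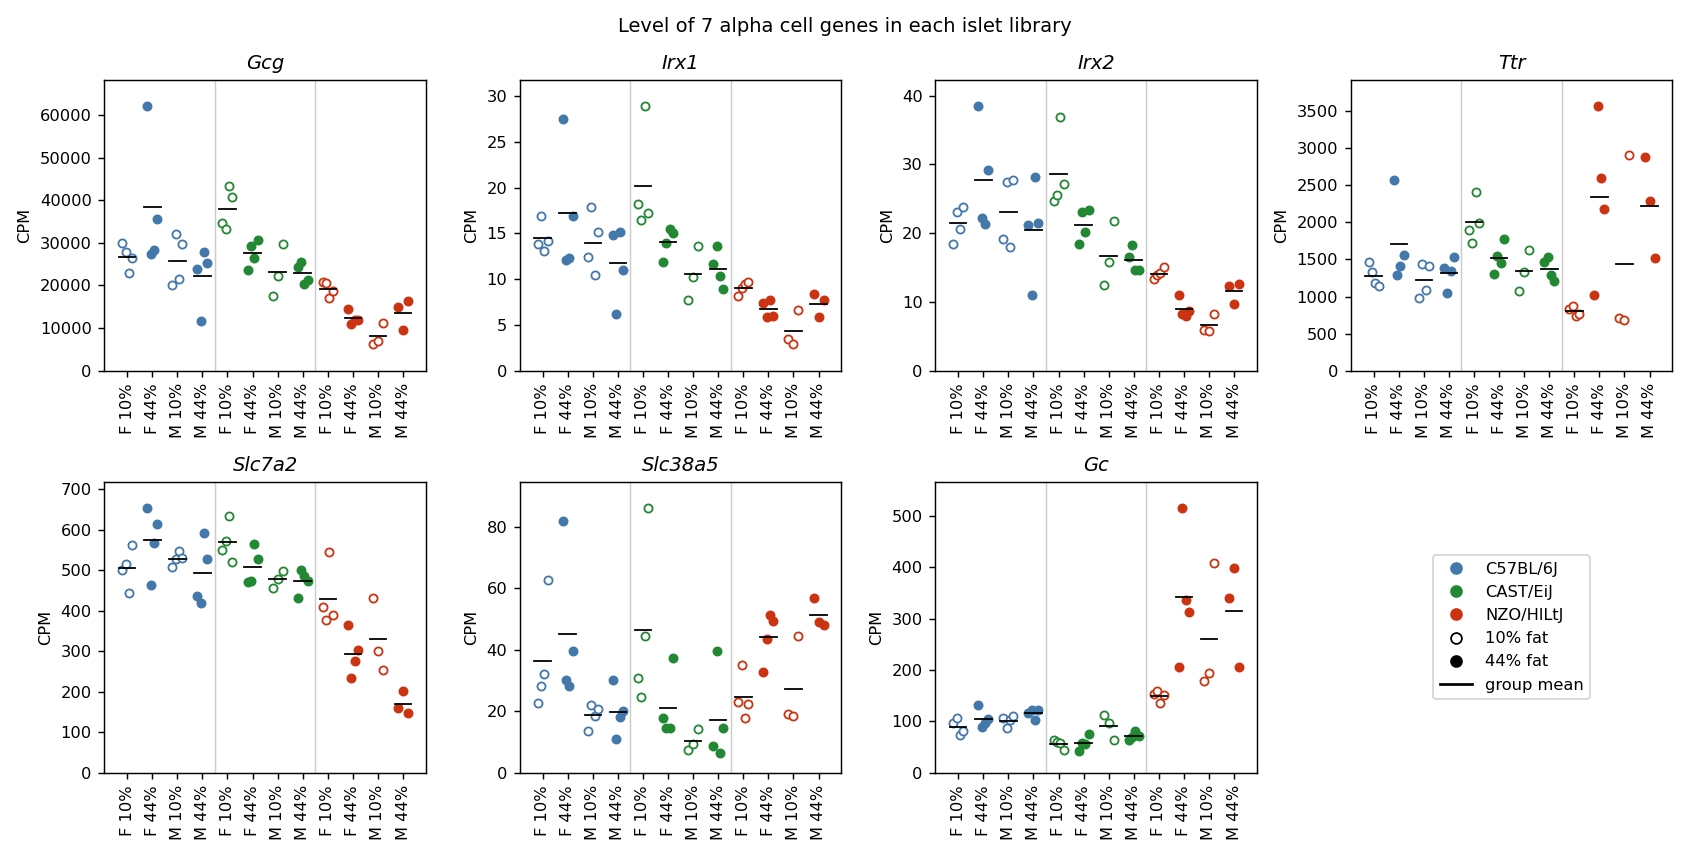
Level of each of the 7 genes in each of the 45 libraries, in CPM on a linear axis, by strain (colour), sex (F, M) and diet (open points 10% fat, filled points 44% fat), with the group mean as a line. Gcg, Irx1 and Irx2 show 1 shared pattern with NZO/HlLtJ lowest, whereas Gc is highest in NZO/HlLtJ.

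On 10% fat, islets of NZO/HlLtJ mice held less Gcg, Irx1, Irx2 and Slc7a2 RNA than those of the other 2 strains, and more Gc. Against C57BL/6J, 4 of the 7 genes were lower and 1 was higher, where 42.1% of all genes tested were called in either direction. Against CAST/EiJ, 5 were lower and 1 was higher, at a background of 53.5%. CAST/EiJ differed from C57BL/6J in 1 of the 7, Gc, at a background of 46.9%. Shares of this size mean that a call by itself did not set these genes apart, and their sizes and shared direction are given below. In bulk islet RNA, fewer alpha cells and less of an RNA per alpha cell cannot be told apart.

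In C57BL/6J females on 10% fat the Gcg level was 29913, 27965, 22869 and 26406 CPM, and in the males it was 20071, 32059, 21529.5 and 29679 CPM. CAST/EiJ females on that diet had 34794, 33385, 43328 and 40830.2 CPM, and the males 17503, 22270.1 and 29788 CPM. NZO/HlLtJ females had 20798, 20696, 16952 and 18627 CPM, and the males 6237, 7014 and 11091 CPM. The 3 NZO/HlLtJ males lay below every other library on this diet, and the NZO/HlLtJ females overlapped only the lowest males of the other strains. The log2 level of Gcg, as a mean over the sexes, was -1.07 in NZO/HlLtJ relative to C57BL/6J (SE 0.17, adjusted p = 3.79e-06) and -1.25 relative to CAST/EiJ (SE 0.18, adjusted p = 2.10e-07). CAST/EiJ and C57BL/6J gave a difference of 0.18 (SE 0.17, adjusted p = 0.418). All adjusted p-values here come from the quasi-likelihood test of edgeR with Benjamini-Hochberg adjustment over all genes tested, at a threshold of 0.05.

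Within the number series, the Gcg difference between NZO/HlLtJ and C57BL/6J was -0.53 and -0.51 in females (series 76 and 80) and -1.69 and -1.52 in males (series 76 and 89) on the log2 scale. Against CAST/EiJ it was -0.75 and -0.91 in females and -1.49 and -1.76 in males. The direction was thus the same in each series that held both strains.

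Irx1 and Irx2, the alpha cell transcription factors, differed between the strains in the same direction and by a similar amount. In NZO/HlLtJ on 10% fat, Irx2 was at 13.3, 13.9, 14.2 and 15.1 CPM in females and at 5.86, 5.74 and 8.26 CPM in males. In C57BL/6J it ranged from 17.9 to 27.7 CPM and in CAST/EiJ from 12.4 to 36.9 CPM, so that NZO/HlLtJ did not overlap C57BL/6J but did overlap the CAST/EiJ males. The log2 difference from C57BL/6J was -1.20 for Irx2 (SE 0.15, adjusted p = 4.53e-08) and -1.19 for Irx1 (SE 0.19, adjusted p = 3.96e-06). From CAST/EiJ it was -1.17 for Irx2 (SE 0.16, adjusted p = 5.54e-08) and -1.22 for Irx1 (SE 0.20, adjusted p = 2.07e-06).

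Slc7a2, the arginine transporter, was lower in NZO/HlLtJ by a smaller amount. Its group means on 10% fat were 430.0 ± 78.0 CPM in NZO/HlLtJ females (SD, n = 4) and 329 ± 92.4 CPM in the males (n = 3), against 506 ± 48.8 and 528 ± 16.8 CPM in C57BL/6J (n = 4 each) and 569 ± 48.6 (n = 4) and 478 ± 21.03 CPM (n = 3) in CAST/EiJ. The log2 difference was -0.46 from C57BL/6J (SE 0.10, adjusted p = 0.000476) and -0.47 from CAST/EiJ (SE 0.11, adjusted p = 0.000321). Scaled by library totals only, the first was -0.42 and lost its call (adjusted p = 0.0537). Slc38a5 gave -0.01 from C57BL/6J (SE 0.34) and 0.25 from CAST/EiJ (SE 0.35), neither past the threshold.

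Gc went the other way. The vitamin D-binding protein gene was at 153, 159, 135 and 152 CPM in NZO/HlLtJ females on 10% fat and at 179, 194 and 408 CPM in the males. It lay between 73.5 and 109 CPM in C57BL/6J and between 44.4 and 112 CPM in CAST/EiJ on that diet, so the NZO/HlLtJ libraries did not overlap either strain. The log2 difference was 1.06 from C57BL/6J (SE 0.17, adjusted p = 2.80e-06) and 1.46 from CAST/EiJ (SE 0.18, adjusted p = 7.04e-09). CAST/EiJ was lower than C57BL/6J by -0.40 on that scale (SE 0.17, adjusted p = 0.0447). That call was lost when any 1 of 10 libraries was left out, namely C57BL/6J females 1 and 2 and males 1, 3 and 4, and CAST/EiJ females 2, 3 and 4 and males 2 and 3, all on 10% fat. The weakest value was -0.29 (adjusted p = 0.181), without CAST/EiJ male 3.

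The result for Ttr, on chromosome 18, depended on 1 library. In NZO/HlLtJ on 10% fat it was at 837, 872, 741 and 759 CPM in females and at 712, 680.4 and 2909 CPM in males, the last in replicate 3, which also held the most Gc and Slc38a5 of these males. C57BL/6J ranged from 980.3 to 1461 CPM and CAST/EiJ from 1074 to 2406 CPM. With all libraries the log2 difference of NZO/HlLtJ from C57BL/6J was -0.22 (SE 0.22, adjusted p = 0.437), and without that male it was -0.75 (adjusted p = 0.00160). From CAST/EiJ it was -0.61 (SE 0.23, adjusted p = 0.0261). Without NZO/HlLtJ male 1 that value was -0.43 (adjusted p = 0.114), without male 2 it was -0.43 (adjusted p = 0.121), without CAST/EiJ female 3 it was -0.56 (adjusted p = 0.0503), and without CAST/EiJ male 3 it was -0.52 (adjusted p = 0.0812).

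**Figure D2:**
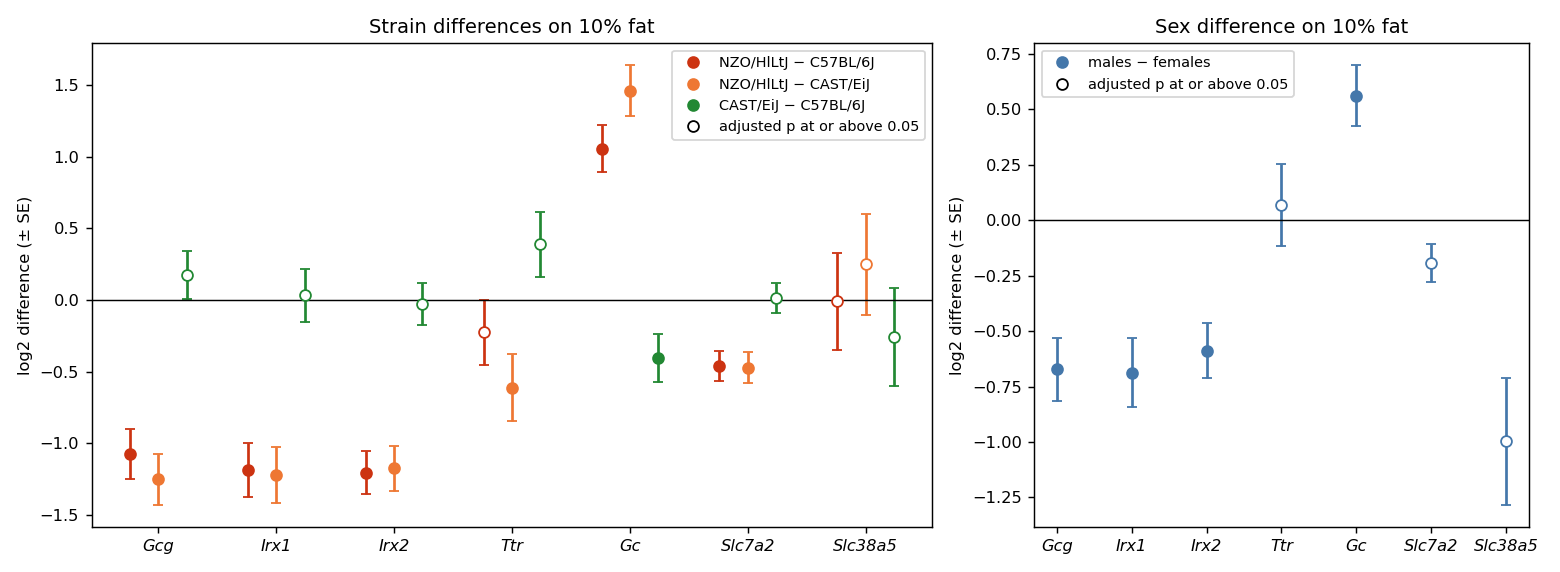
Log2 differences of the 7 genes between strains on 10% fat (left, mean over the sexes) and between males and females on 10% fat (right, mean over the strains), with SE bars. Filled points passed an adjusted p of 0.05 in edgeR. Gcg, Irx1 and Irx2 lie between -1.25 and -1.07 for NZO/HlLtJ against either strain and near 0 for CAST/EiJ against C57BL/6J.

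Males on 10% fat had less Gcg, Irx1 and Irx2 than females and more Gc, as a mean over the 3 strains. These were 4 of 7 genes called, at a background of 0.852% of all genes tested. The log2 difference, males minus females, was -0.67 for Gcg (SE 0.14, adjusted p = 0.0125), -0.59 for Irx2 (SE 0.12, adjusted p = 0.0125) and -0.69 for Irx1 (SE 0.16, adjusted p = 0.0202). Gc gave 0.56 (SE 0.14, adjusted p = 0.0359), and Slc38a5 gave -0.996 with a wide error (SE 0.29, adjusted p = 0.0972).

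The Gcg group means behind this differed by strain. They were 26788 and 25835 CPM in C57BL/6J females and males, 38084 and 23187 in CAST/EiJ, and 19268 and 8114 in NZO/HlLtJ. Irx2 was at 21.5 and 23.1 CPM in C57BL/6J females and males, with the male mean higher, at 28.6 and 16.7 CPM in CAST/EiJ, and at 14.1 and 6.62 CPM in NZO/HlLtJ. Irx1 was lower and Gc higher in the male mean of each strain. Whether the sex difference itself varied with strain was not tested. Within the number series the Gcg difference, males minus females, ranged from -0.58 to 0.34 in C57BL/6J, from -0.99 to -0.50 in CAST/EiJ, and was -1.73 in the 1 series of NZO/HlLtJ that held both sexes.

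The calls of Gcg and Irx2 held when any 1 library was left out. The Irx1 call was lost without CAST/EiJ male 1 (-0.63, adjusted p = 0.0641), CAST/EiJ male 2 (-0.68, adjusted p = 0.0563), CAST/EiJ female 3 (-0.61, adjusted p = 0.0524) or NZO/HlLtJ male 2 (-0.61, adjusted p = 0.0612). The Gc call was lost without any 1 of 14 libraries on 10% fat: all 4 NZO/HlLtJ females, NZO/HlLtJ male 3, C57BL/6J females 3 and 4 and males 1, 3 and 4, and CAST/EiJ females 3 and 4 and males 1 and 2. Its weakest value was 0.40 (adjusted p = 0.195), without NZO/HlLtJ male 3. With library totals alone none of the 7 was called by sex, and Gcg gave -0.55 (adjusted p = 0.225). That fit called 44 genes in all by sex, against 173 in the main fit.

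On 44% fat, Ttr and Gc rose and Slc7a2 fell in NZO/HlLtJ islets with the sexes averaged, and the value of Slc38a5 was just outside the threshold. Irx2 fell in females and rose in males. Gcg rose in males, and its value in females and those of Irx1 in either sex did not pass the test. As a mean over the sexes 2 of 7 were called higher and 1 lower, at a background of 34.2%. In females 2 were higher and 2 lower, at a background of 15.8%, and in males 2 were higher and 1 lower, at 29.3%. The diet-by-sex interaction was called for 3 of the 7, at a background of 9.26%.

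In NZO/HlLtJ females the Gcg level was 20798, 20696, 16952 and 18627 CPM on 10% fat and 14592, 10865, 11946 and 11809 CPM on 44% fat, with no overlap. In NZO/HlLtJ males it was 6237, 7014 and 11091 CPM on 10% fat and 14884, 9542 and 16456 CPM on 44% fat, with replicate 2 on 44% fat below the highest male on 10% fat. On 44% fat the 2 sexes thus stood at like levels, 12303 ± 1599.8 CPM in females (SD, n = 4) and 13627.5 ± 3624 CPM in males (n = 3). Gcg gave a log2 fold change of -0.65 in females (SE 0.23, adjusted p = 0.0506), just short of the threshold, and rose by 0.75 in males (SE 0.27, adjusted p = 0.0318). The mean over the sexes, 0.05 (SE 0.18, adjusted p = 0.859), averaged these opposite values. The difference of the 2 effects, males minus females, was 1.40 (SE 0.35, adjusted p = 0.0117).

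Irx2 was at 11.02, 8.24, 7.88 and 8.72 CPM in NZO/HlLtJ females on 44% fat, below all 4 on 10% fat, and at 12.3, 9.70 and 12.6 CPM in males, above all 3 on 10% fat. It fell by 0.65 on the log2 scale in females (SE 0.20, adjusted p = 0.0242), rose by 0.80 in males (SE 0.24, adjusted p = 0.0101), and the difference between the sexes was 1.46 (SE 0.31, adjusted p = 0.00415). Irx1 was at 7.37, 5.81, 7.67 and 5.95 CPM in the females on 44% fat, against 8.12 to 9.66 CPM on 10% fat. In the males it was at 8.39, 5.85 and 7.72 CPM, against 3.43, 2.93 and 6.66 CPM on 10% fat. Irx1 gave -0.43 in females (SE 0.25, adjusted p = 0.248) and 0.76 in males (SE 0.30, adjusted p = 0.0506), with a difference between the sexes of 1.19 (SE 0.39, adjusted p = 0.0464).

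In NZO/HlLtJ, number series and diet are partly confounded within each sex, and diet could be compared within series 76 alone. There the log2 difference of 44% from 10% fat was -0.72 for Gcg, -0.51 for Irx2 and -0.39 for Irx1 in females (2 libraries on each diet). It was 1.25 for Gcg, 1.07 for Irx2 and 1.29 for Irx1 in males (1 library on each diet). These have the signs of the values over all libraries. With the series as a factor in the model, the difference between the sexes was 1.71 for Gcg (adjusted p = 0.00246) and 1.71 for Irx2 (adjusted p = 0.00104). That model takes a shift between series to be the same in every strain.

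The calls in single sexes rested on few libraries. The rise of Gcg in males lost its call without male 1 on 10% fat (0.57, adjusted p = 0.180), male 2 on 10% fat (0.64, adjusted p = 0.141), male 1 on 44% fat (0.68, adjusted p = 0.0819) or male 3 on 44% fat (0.59, adjusted p = 0.184). Without the 5 libraries with transcripts of another strain, the male values were 0.58 for Gcg (adjusted p = 0.217) and 0.72 for Irx2 (adjusted p = 0.0794), and with library totals alone 0.72 (adjusted p = 0.135) and 0.76 (adjusted p = 0.0710). In females Gcg was called without replicate 1 on 44% fat (-0.74, adjusted p = 0.0373). The rise of Irx2 in males was lost without male 1 or 2 on 10% fat or male 3 on 44% fat, at adjusted p-values of 0.0637, 0.0638 and 0.0596. Its fall in females was lost without replicate 3 or 4 on 10% fat or replicate 2, 3 or 4 on 44% fat, at adjusted p-values from 0.0518 to 0.0794. Irx1 was called in males without male 3 on 10% fat (1.20, adjusted p = 0.00361) or male 2 on 44% fat (0.89, adjusted p = 0.0370).

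The difference between the sexes was less bound to single libraries for Irx2, which was called whichever library was left out. For Gcg it was lost without male 3 on 44% fat, 1 of the 5 libraries with transcripts of another strain (1.24, adjusted p = 0.0741). For Irx1 it was lost without any 1 of 10 libraries: all 4 females on 10% fat, females 2 and 4 and males 1 and 3 on 44% fat, and males 1 and 2 on 10% fat, with 0.97 as the smallest value (adjusted p = 0.160). Without all 5 libraries that held transcripts of another strain, the difference was 1.24 for Gcg (adjusted p = 0.106), 1.15 for Irx1 (adjusted p = 0.198) and 1.39 for Irx2 (adjusted p = 0.0435). With the NZO/HlLtJ libraries fitted alone it was 1.39 (adjusted p = 0.0868), 1.19 (adjusted p = 0.0962) and 1.45 (adjusted p = 0.0400) in the same order.

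**Figure D3:**
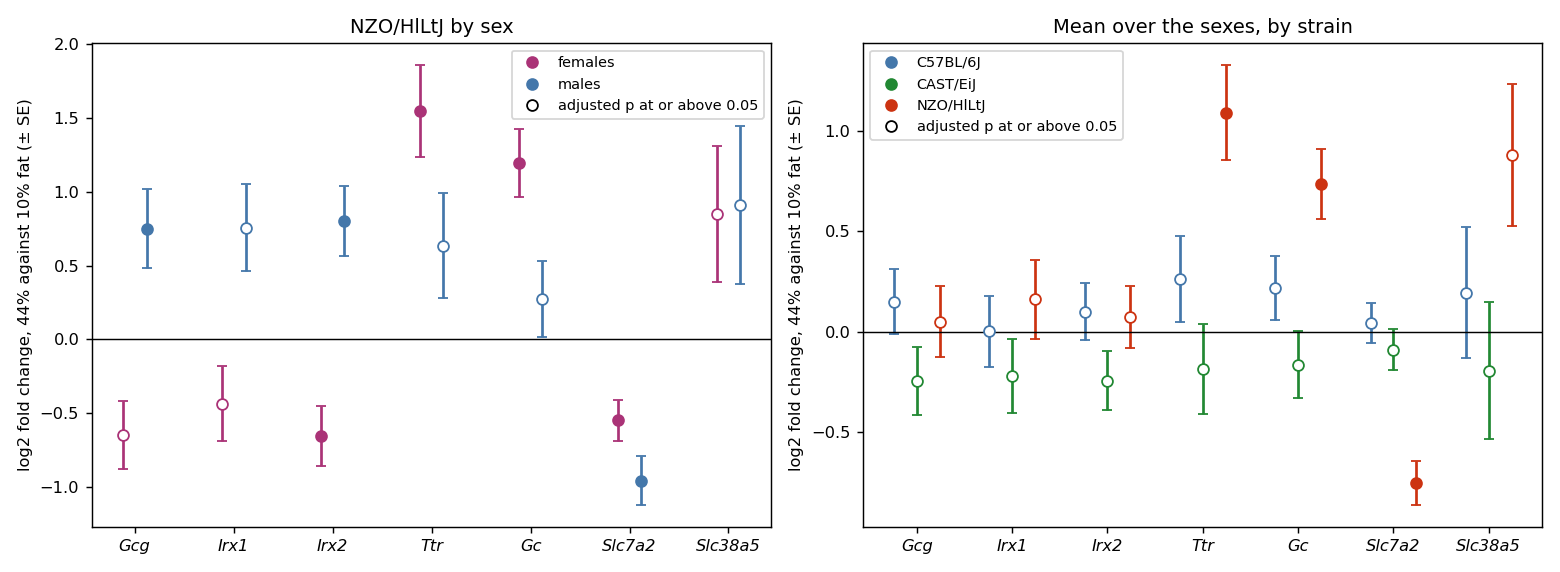
Log2 fold change of the 7 genes on 44% against 10% fat, with SE bars, in NZO/HlLtJ females and males (left) and as the mean over the sexes in each strain (right). Filled points passed an adjusted p of 0.05 in edgeR. In NZO/HlLtJ, Gcg, Irx1 and Irx2 lie below 0 in females and above 0 in males, and Slc7a2 lies below 0 in both.

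Ttr and Gc, the genes of the 2 carrier proteins, rose on 44% fat in NZO/HlLtJ. In females Ttr went from 837, 872, 741 and 759 CPM on 10% fat to 1021, 3566, 2595 and 2179.6 CPM on 44% fat, with no overlap and with replicate 1 far below the other three. Gc went in the same females from 153, 159, 135 and 152 CPM to 206, 515, 337 and 314 CPM, again without overlap and with replicate 1 lowest. Ttr rose by 1.54 on the log2 scale (SE 0.31, adjusted p = 0.000820) and Gc by 1.20 (SE 0.23, adjusted p = 0.000462). In these females Ttr and Gc rose in the islets in which Irx2 fell.

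In NZO/HlLtJ males Ttr was at 712, 680.4 and 2909 CPM on 10% fat and at 2879, 2284 and 1519.6 CPM on 44% fat, with a log2 fold change of 0.64 (SE 0.35, adjusted p = 0.178). Without male 3 on 10% fat it was 1.68 (adjusted p = 9.68e-05). Gc in males was at 179, 194 and 408 CPM on 10% fat and at 340.1, 399 and 206 CPM on 44% fat, a log2 fold change of 0.27 (SE 0.26, adjusted p = 0.460), or 0.75 without that library (adjusted p = 0.0254). In both genes the highest male on 10% fat was replicate 3 and the lowest on 44% fat was replicate 3 as well. The diet-by-sex interaction was -0.91 for Ttr (SE 0.47, adjusted p = 0.224) and -0.92 for Gc (SE 0.34, adjusted p = 0.0843), so a difference between the sexes was not called for either. For Gc it was called without female 1 on 44% fat (-1.10, adjusted p = 0.0274), male 1 on 10% fat (-1.13, adjusted p = 0.0356) or male 2 on 44% fat (-1.13, adjusted p = 0.0416). As a mean over the sexes Ttr rose by 1.09 (SE 0.24, adjusted p = 0.000461) and Gc by 0.73 (SE 0.17, adjusted p = 0.00113).

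Slc7a2 fell in both sexes of NZO/HlLtJ. Its level went from 409, 377, 545 and 389 CPM to 365, 233, 275 and 303 CPM in females and from 432, 301 and 254 CPM to 161, 200.4 and 147 CPM in males, with no overlap in either sex. It fell by 0.55 on the log2 scale in females (SE 0.14, adjusted p = 0.00668), by 0.96 in males (SE 0.16, adjusted p = 5.11e-05) and by 0.75 as a mean over the sexes (SE 0.11, adjusted p = 2.20e-06). Within series 76 the differences were -0.43 in females and -1.43 in males. Leaving out female 3 on 10% fat ended the call in females (-0.41, adjusted p = 0.0578). The lowest level of this gene in the whole series was 147 CPM, in an NZO/HlLtJ male on 44% fat.

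Slc38a5 was at 23.0, 34.9, 17.8 and 22.5 CPM in NZO/HlLtJ females on 10% fat and at 32.6, 43.5, 51.4 and 49.4 CPM on 44% fat. In the males it was at 19.0, 18.3 and 44.6 CPM and at 56.9, 49.0 and 47.9 CPM. The mean over the sexes was 0.88 (SE 0.35, adjusted p = 0.0518), just outside the threshold, and it was called without female 2 on 10% fat (0.99, adjusted p = 0.0378), female 1 on 44% fat (0.94, adjusted p = 0.0451) or male 3 on 10% fat (1.15, adjusted p = 0.0157). Acinar RNA varied widely between libraries and is given beside this gene. Its highest level, 86.0 CPM, was in CAST/EiJ female 4 on 10% fat, where 16 acinar genes summed to 653710.0 CPM, and in CAST/EiJ males on 44% fat the library with 39.5 CPM had 203827 CPM of acinar RNA against 842 to 46222 CPM in the other three. C57BL/6J female 1 on 44% fat, at 81.9 CPM, had 1676 CPM of acinar RNA, the least of its group. In CAST/EiJ females on 44% fat, replicate 4 had the most Slc38a5, 37.4 CPM, with 23283 CPM of acinar RNA, and replicate 2 had 14.5 CPM with 62276 CPM. The part of acinar RNA in the Slc38a5 levels was not tested. With an acinar score as a covariate the NZO/HlLtJ value was 0.70 (adjusted p = 0.0797).

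In C57BL/6J and CAST/EiJ, none of the 7 genes passed the edgeR test for diet, DESeq2 and limma-trend called none either, and nearly no gene of the whole table did. As means over the sexes, 0.0246% of all genes were called in C57BL/6J and 0.0295% in CAST/EiJ. The log2 fold changes of the 7 ranged from 0.00 for Irx1 to 0.26 for Ttr in C57BL/6J and from -0.24 for Gcg to -0.09 for Slc7a2 in CAST/EiJ, and none of these had an unadjusted p under 0.05. By sex, the background was 0% in C57BL/6J females (542 genes at an unadjusted p under 0.05), 0.00492% in C57BL/6J males, 0.231% in CAST/EiJ females and 0% in CAST/EiJ males (521 genes at an unadjusted p under 0.05).

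In CAST/EiJ females the unadjusted p was under 0.05 for 4 of the 7, with Gcg at -0.47 (SE 0.23, adjusted p = 0.508), Irx1 at -0.53 (SE 0.25), Irx2 at -0.43 (SE 0.20) and Slc38a5 at -1.14 (SE 0.47). Their Gcg levels were 34794, 33385, 43328 and 40830.2 CPM on 10% fat and 23747, 29288, 26403 and 30720.3 CPM on 44% fat, with no overlap, and 3 of the 4 libraries on 44% fat held transcripts of another strain. In C57BL/6J females 1 of the 7, Gcg, was under an unadjusted p of 0.05, at 0.52 (SE 0.23), with 62086, 27514, 28302 and 35710.3 CPM on 44% fat. The first of these is the highest Gcg level of the series, and the same library held the highest Irx2 and Slc7a2 levels. The diet-by-sex interaction was called for none of the 7 in C57BL/6J, at a background of 0% (743 genes at an unadjusted p under 0.05, among the 7 Gcg alone), or in CAST/EiJ, at 0.00985%, where Slc38a5 gave the largest value, 1.89 (SE 0.69, unadjusted p = 0.0102, adjusted p = 0.769).

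The diet effect in NZO/HlLtJ was compared with that in the other strains as an interaction, as means over the sexes. Against C57BL/6J, 1 of the 7 was called at a background of 17.4%: Slc7a2, with a difference of -0.80 (SE 0.15, adjusted p = 0.000456). Against CAST/EiJ, 3 were called at a background of 25.0%: Ttr at 1.27 (SE 0.32, adjusted p = 0.00410), Slc7a2 at -0.66 (SE 0.15, adjusted p = 0.00148) and Gc at 0.90 (SE 0.24, adjusted p = 0.00580). The Ttr difference from C57BL/6J was 0.83 (SE 0.32, adjusted p = 0.0650). It was called without C57BL/6J female 1 on 44% fat (0.96, adjusted p = 0.0305), NZO/HlLtJ female 1 on 44% fat (0.95, adjusted p = 0.0209) or NZO/HlLtJ male 3 on 10% fat (1.35, adjusted p = 0.000168). Without that male, Gc differed from C57BL/6J by 0.76 (adjusted p = 0.00905) and Slc38a5 from CAST/EiJ by 1.35 (adjusted p = 0.0389). Slc38a5 was called against CAST/EiJ also without CAST/EiJ male 2 on 44% fat (1.48, adjusted p = 0.0142) or female 4 on 44% fat (1.29, adjusted p = 0.0492). None of the 7 differed in diet effect between CAST/EiJ and C57BL/6J by edgeR, DESeq2 or limma-trend, at a background of 0.0148%, and none had an unadjusted p under 0.05. The 3 interactions share their strains, so their values are not independent.

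The ratio of Gcg counts to the sum of Ins1 and Ins2 counts sets glucagon RNA against insulin RNA within a library and does not depend on scaling. On 10% fat its geometric mean was 0.309 in C57BL/6J females and 0.255 in the males, 0.338 and 0.190 in CAST/EiJ, and 0.196 and 0.0590 in NZO/HlLtJ. With the sexes averaged, the log2 ratio was lower in NZO/HlLtJ by 1.39 than in C57BL/6J (0.383-fold, n = 7 against 8) and by 1.24 than in CAST/EiJ (0.423-fold, n = 7 each). Both had an adjusted p of 0.00429 in an exact two-sided permutation test within sexes, over 12 tests. The ratio to insulin did not differ between CAST/EiJ and C57BL/6J past the threshold, with -0.15 on the log2 scale (exact permutation test, adjusted p = 0.734).

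By sex, the ratio in NZO/HlLtJ had values on the 2 diets that did not overlap, although neither change passed the test. In females it was 0.212, 0.241, 0.182 and 0.158 on 10% fat and 0.133, 0.0748, 0.0909 and 0.0750 on 44% fat, with no overlap. In males it was 0.0535, 0.0533 and 0.0721 on 10% fat and 0.183, 0.104 and 0.391 on 44% fat, again with no overlap. The log2 change was -1.11 in females (exact permutation test, two-sided p = 0.0286, adjusted p = 0.343) and 1.73 in males (exact permutation test, p = 0.1, adjusted p = 0.4), each at the smallest p that its group sizes allow. As a mean over the sexes the change was 0.31 (exact permutation test within sexes, adjusted p = 0.734). On the insulin side of the ratio, Ins1 fell by 0.998 (adjusted p = 0.000748, edgeR) and Ins2 by 0.85 (adjusted p = 0.00183) in the males. In the females Ins1 rose by 0.61 (adjusted p = 0.0236) and Ins2 gave 0.38 (adjusted p = 0.138).

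Against somatostatin, the delta cell hormone, the strains ordered differently. The log2 ratio of Gcg to Sst was higher in CAST/EiJ than in C57BL/6J by 0.57 (exact permutation test, adjusted p = 0.00429) and lower in NZO/HlLtJ than in CAST/EiJ by 0.83 (exact permutation test, adjusted p = 0.00429). NZO/HlLtJ gave -0.27 relative to C57BL/6J (exact permutation test, adjusted p = 0.0999). Sst itself was lower in NZO/HlLtJ than in C57BL/6J by 0.82 on the log2 scale (adjusted p = 5.99e-07, edgeR). In NZO/HlLtJ females on 44% fat Sst fell by 0.68 (adjusted p = 0.00336), close to the Gcg value, and the Gcg to Sst ratio changed by 0.04 (exact permutation test, p = 0.657). In the males Sst gave 0.01 (adjusted p = 0.981) and the ratio changed by 0.74 (exact permutation test, p = 0.1).

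**Figure D4:**
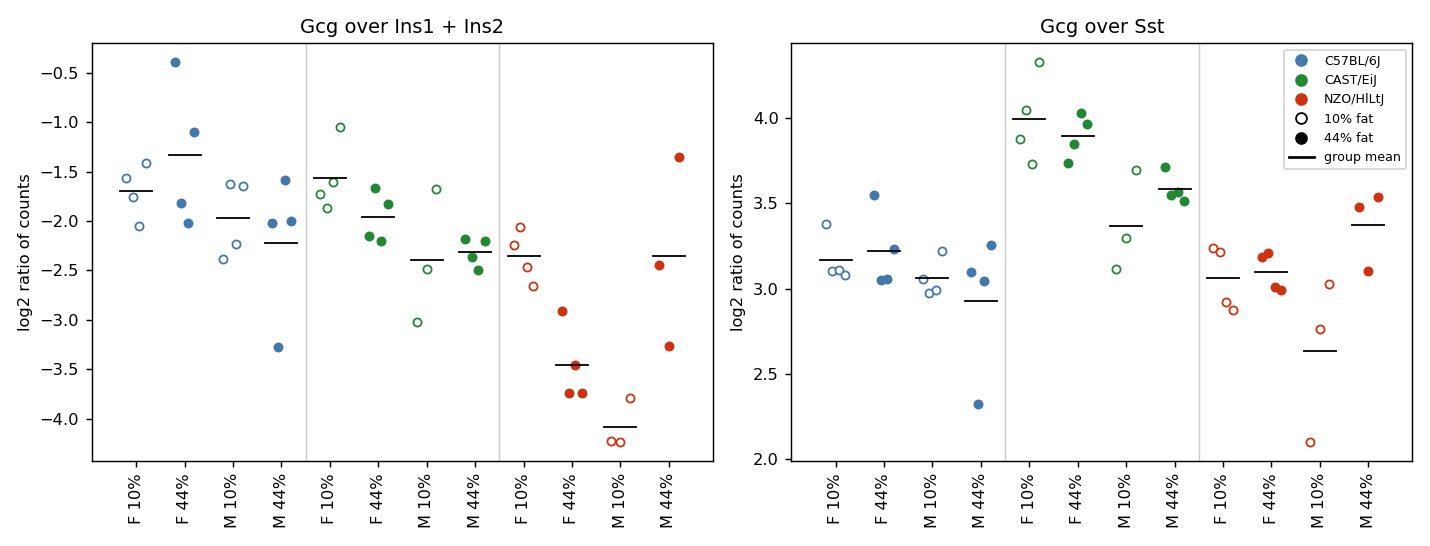
Log2 ratio of Gcg counts to Ins1 plus Ins2 counts (left) and to Sst counts (right) in each library, by strain, sex and diet, with group means as lines. In NZO/HlLtJ the ratio to insulin lies lower on 44% fat in females (-3.74 to -2.91) and higher in males (-3.26 to -1.35) than on 10% fat.

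Of a list of 10 other alpha cell genes, 8 were lower in NZO/HlLtJ than in C57BL/6J on 10% fat and 1 was higher, where 42.1% of all genes were called, with a median log2 difference of -0.73 against -0.01 over all genes. The largest of these were Tmsb15l at -2.08 (adjusted p = 7.14e-10), Pou3f4, a homeodomain factor also called Brn4, at -1.59 (adjusted p = 2.26e-06), Smarca1 at -1.20 (adjusted p = 1.78e-10) and Mamld1 at -0.87 (adjusted p = 3.18e-06). Between the sexes 4 of the 10 were lower in males and none was higher, at a background of 0.852%.

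On 44% fat in NZO/HlLtJ females 4 of the 10 other alpha cell genes fell and none rose, with a median of -0.55, at a background of 15.8% called. Among them Smarca1 fell by 0.55 (adjusted p = 0.0159) and the imprinted gene Peg3 by 0.55 (adjusted p = 0.0238). In the males 2 of the 10 fell and none rose, with a median of -0.10, a share below the 29.3% of all genes called. There Rgs4 fell by 0.95 (adjusted p = 0.0377) and Peg3 by 0.84 (adjusted p = 0.00156). The diet-by-sex interaction was called higher for 3 of the 10 and lower for 1, at a background of 9.26%, among them Smarca1 at 0.84 (adjusted p = 0.0256) and Rgs4 at -1.61 (adjusted p = 0.0251).

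Of 10 tested transcription factors known to act on the glucagon gene, 5 fell on 44% fat in NZO/HlLtJ with the sexes averaged, and none rose, where 34.2% of all genes were called. Among them were Pax6 (-0.70, adjusted p = 5.32e-07), Isl1 (-0.69, adjusted p = 7.16e-06), Neurod1 (-0.65, adjusted p = 2.21e-05) and Foxa2 (-0.44, adjusted p = 0.000512). Pax6, Isl1, Neurod1 and Foxa2 are made in beta cells as well. In males 5 of the 10 fell, at a background of 29.3%, and in females 3, at 15.8%. Cdx2 was not analysed here.

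Among 9 genes of proglucagon processing and the incretin axis, the calls in NZO/HlLtJ were all upward in females and all downward in males. In females 5 rose on 44% fat, at a background of 15.8%, among them Pcsk1, the convertase that cuts GLP-1 from proglucagon and acts on proinsulin (0.68, adjusted p = 0.00575), carboxypeptidase E (Cpe, 0.66, adjusted p = 0.00497) and Pcsk2 (0.59, adjusted p = 0.00519). In males 4 fell, at a background of 29.3%, with the GIP receptor Gipr at -2.02 (adjusted p = 9.27e-07), the GLP-1 receptor Glp1r at -1.56 (adjusted p = 2.89e-05), Pcsk1 at -0.83 (adjusted p = 0.00172) and Pcsk2 at -0.55 (adjusted p = 0.0123). The interaction was called lower for 6 of the 9, at a background of 9.26%, with Pcsk2 at -1.14 (adjusted p = 0.00222), the reverse of the sign for Gcg. Beta cells make these convertases and receptors too.

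Of 16 amino acid transporters, Slc7a2 and Slc38a5 included, 3 rose and 4 fell on 44% fat in NZO/HlLtJ with the sexes averaged, a share near the 34.2% of all genes called. Slc38a1 (1.58, adjusted p = 0.000108) and Slc7a7 (1.07, adjusted p = 5.76e-06) gave the largest rises, and Slc7a2 and Slc1a4 (-0.55, adjusted p = 0.0106) the largest falls. Of 8 genes of vitamin A, vitamin D and thyroid hormone transport, Ttr and Gc included, 3 rose and 1 fell in that comparison. Rbp4, the plasma partner of transthyretin, did not follow Ttr: in NZO/HlLtJ females Rbp4 fell by 0.64 (adjusted p = 0.0138), and its diet-by-sex interaction was 1.09 (adjusted p = 0.0126). The vitamin D receptor Vdr fell by 0.80 as a mean over the sexes (adjusted p = 0.000111). In the Iroquois family, the third tested gene was not called for diet in NZO/HlLtJ, Irx5 was too low to test, and Irx4 and Irx6 were not analysed here.

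Markers of other cells moved with diet in NZO/HlLtJ. All 8 macrophage genes rose in either sex, at backgrounds of 15.8% in females and 29.3% in males, and their summed level was 58.1 to 64.6 CPM on 10% fat and 156 to 216 CPM on 44% fat in females, and 81.2 to 257 and 474 to 855 CPM in males. All 6 fibroblast genes rose in males and 2 in females, with a median summed level of 506 CPM on 10% fat and 1762 CPM on 44% fat in males and of 363 and 661 CPM in females. Of 8 duct genes 5 rose in males and 2 in females, and of 7 lymphocyte genes 2 rose in males and none in females. The duct sum had medians of 565 and 1166 CPM in males, and the lymphocyte sum 4.37 and 46.0 CPM. None of 16 acinar genes was called in either sex, while their sum had medians of 41492 and 122686 CPM in males and 21074 and 56673 CPM in females. The part of these cells in the results of the 7 genes was not tested. Fits with an acinar or a macrophage score were run, but the macrophage sum did not overlap between the diets in either sex. A fit with the macrophage score therefore cannot tell macrophages and diet apart in NZO/HlLtJ. With the macrophage score as a covariate, the mean diet effect of NZO/HlLtJ over both sexes was called for no gene of the table, and Ttr gave 0.69 (adjusted p = 0.654), Gc 0.95 (adjusted p = 0.280) and Slc7a2 -0.51 (adjusted p = 0.418). The Gcg difference between the sexes was 1.25 (adjusted p = 0.0283) in that fit and the Irx2 difference 1.37 (adjusted p = 0.0113).

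Ttr and Gc are also liver genes, so 8 other hepatocyte genes were summed. Their total was at most 46.8 CPM in any library, in replicate 3 of NZO/HlLtJ males on 44% fat. That library held 1519.6 CPM of Ttr and 206 CPM of Gc, the least of its group for either gene. In NZO/HlLtJ females it was 12.1 to 17.0 CPM on 10% fat and 17.5 to 39.3 CPM on 44% fat. Alb, the defining marker, was at 0.343 to 23.8 CPM over all libraries and rose by 1.14 in NZO/HlLtJ females (adjusted p = 0.0328) and by 1.79 in the males (adjusted p = 0.00200). Of these 8 genes, Alb, Apoa1 and Apob rose in females, at a background of 15.8%, and Alb and Apob in males, at 29.3%. Their part in the Ttr and Gc results was not tested.

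Libraries of 1 group differed among themselves, and these deviations from the group means tied some of the 7 genes closely together. Over the 45 libraries Pearson's r was 0.89 for Gcg with Irx2, 0.87 for Gcg with Irx1 and 0.89 for Irx1 with Irx2 (Spearman's rho 0.87, 0.82 and 0.85). Each had a permutation p of 1e-05, the smallest that 100000 resamples can give, and an adjusted p of 7e-05 over 21 pairs. Leaving out the 2 libraries farthest from the median of the first gene gave 0.85, 0.81 and 0.85. Ttr and Gc gave 0.69 (rho 0.46, permutation p = 0.0030, adjusted p = 0.0070, and 0.54 without the 2 farthest libraries). Gc and Gcg gave 0.00 (rho -0.03, permutation p = 0.99, adjusted p = 0.99). Slc7a2 and Gcg gave 0.12 (rho 0.13, permutation p = 0.57, adjusted p = 0.67), and -0.05 without the 2 farthest libraries. Ttr took part in both sets, with 0.49 for Gcg (rho 0.61, permutation p = 0.0067, adjusted p = 0.014) and 0.43 without the 2 farthest libraries. Slc38a5 gave 0.56 with Gcg (rho 0.56, permutation p = 0.00017, adjusted p = 0.00071) and 0.47 without the 2 farthest libraries. It gave 0.53 with Irx1, 0.52 with Irx2 and 0.50 with Ttr, against 0.13 with Gc and -0.02 with Slc7a2. Both values of a point share the scaling of their library and its islet preparation. The share of alpha cells in each preparation was not measured, and its part in these correlations was not tested.

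**Figure D5:**
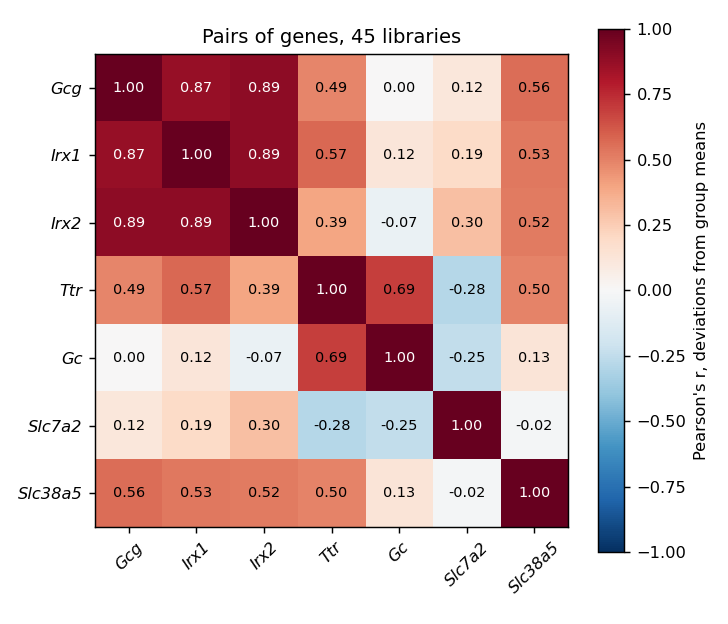
Pearson's r between the 7 genes over 45 libraries, computed on log2 CPM after the mean of each of the 12 groups was taken off. Gcg, Irx1 and Irx2 form a block at 0.87 to 0.89, and Ttr and Gc are joined at 0.69. Slc38a5 lies at 0.50 to 0.56 with Gcg, Irx1, Irx2 and Ttr, and Slc7a2 stands apart with r below 0.30.

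Of all 20306 genes, those most like Gcg by this measure over the 45 libraries were Gpx3 (r = 0.92), Irx2, Rbp4 (0.88), Irx1, Mamld1 (0.87), Klhl13 (0.85), Upp1 (0.83), Vwde (0.81) and Sgce (0.80), of which Gpx3 encodes a secreted glutathione peroxidase. Slc38a5 stood at rank 99, Ttr at rank 215, Slc7a2 at rank 6735 and Gc at rank 10748. Of the list of other alpha cell genes, Rgs4 stood at rank 442 (r = 0.44), Tmsb15l at rank 1915 (0.30) and Peg3 at rank 16823 (-0.23). The rest of that list stood from rank 5 to rank 72. Over the 12 group means the order began with Irx1 (0.99) and Irx2 (0.98), followed by Abcc12 (0.97), Kcnk3 (0.96) and Igsf21 (0.96). There Gc was near the other end, at rank 20112 with r = -0.84. The ranks are a description with no test.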

How the data were processed

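Islet RNA of 45 libraries in 12 groups was analysed. The expected counts were made and deposited by the authors, with 23.6% of values not whole, and were rounded to whole numbers here. The log2 variance-stabilised values were also made and deposited by the authors. The submitters' processing notes name DESeq2 and GRCm38. No aligner, counter or strand setting is given in the sources used here.

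All 20306 genes that passed edgeR's filter on low counts, of 22904, were fitted in 1 quasi-likelihood model with 12 groups (edgeR 4.0.16, R 4.3.3, TMM scaling, robust), with 19 comparisons and Benjamini-Hochberg adjustment over all genes. Alternatives were DESeq2 1.42.0, limma-trend (limma 3.58.1) on the deposited log2 values, other scalings, no filter, each strain alone, the number series as a factor, acinar or macrophage scores as covariates, and libraries left out. Hormone ratios were tested by exact permutation within sexes (scipy 1.17.1). In data simulated for the NZO/HlLtJ diet effect, 100 genes were changed by a log2 value of 1 and 100 by 0.5, among 19935 genes. Of these, 87% and 55% were recovered, with 6 false calls. The simulation changed far fewer genes than were called in these data and held no other difference between groups. Its recovery thus does not give the share of real changes found here.

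The members and the gene lists were chosen with earlier results of these data known. All 7 members are named. From each other list at most 4 genes are named, those with the largest change among those past the threshold in the comparison described, and by likeness the first 10 genes over libraries and the first 5 over group means. Some genes that this rule names are not reported here.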

Additional observations from a re-analysis of the deposited data

Results flagged for a closer look

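In 2 of 63 combinations of gene and group of 4 libraries, 1 library stood far from the other three by Dixon's criterion, which chance meets in about 1 of 20 groups. These were Irx1 in CAST/EiJ female 3 on 10% fat, at 28.9 CPM, and Slc38a5 in CAST/EiJ female 4 on 44% fat, at 37.4 CPM.

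The effect of diet differed between the sexes of NZO/HlLtJ, males minus females on the log2 scale, by 1.40 for Gcg, 1.19 for Irx1 and 1.46 for Irx2, each by the interaction test in edgeR. It differed between strains for 3 genes by the same kind of test. The Slc7a2 effect in NZO/HlLtJ differed by -0.80 from that in C57BL/6J and by -0.66 from that in CAST/EiJ. The Ttr and Gc effects in NZO/HlLtJ differed from those in CAST/EiJ by 1.27 and 0.90.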

How the results depend on the processing

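Among the comparisons of NZO/HlLtJ, of strains and of sex, no gene result called in the main fit or the alternative changed sign. Sign changes of results called in neither fit were not counted. Over planned settings 599 gene results kept their side of the threshold, 20 gained a call and 39 lost one, and with 1 library left out these numbers were 1094, 19 and 56. The larger moves in the counts of the 7 genes called were as follows, and the cause was not tested. Smaller moves are given for DESeq2 and limma only. With library totals alone the count was 1 for diet in NZO/HlLtJ males, 1 for diet by sex, 0 for CAST/EiJ against C57BL/6J and 0 for sex. Over all genes the calls there were 2692, 193, 6789 and 44, against 5944, 1881, 9529 and 173 in the main fit. Without the filter the count was 0 for CAST/EiJ against C57BL/6J, where 9616 genes were called in all. With the number series as a factor it was 5 in NZO/HlLtJ males, where 6851 genes were called in all. With the macrophage score the count was 0 for the NZO/HlLtJ mean, 2 in females, 0 in males, and 0 for both strain interactions of NZO/HlLtJ. Over all genes that fit called 0 for the mean, 817 in females, 7 in males and 0 for either interaction. Without the 5 libraries the count was 1 in NZO/HlLtJ males and 1 for diet by sex. Over all genes the calls there were 2205 and 164, against 5944 and 1881 in the main fit. limma gave 5 in NZO/HlLtJ males and 2 for the interaction with C57BL/6J, for which DESeq2 also gave 2. Over all genes limma called 6240 and 4208 there, and DESeq2 called 4178 for that interaction. Smaller moves with DESeq2 were 4 for the NZO/HlLtJ mean, 5 in its females, 4 in its males and 5 for sex. Over all genes DESeq2 called 7124, 3871, 6088 and 378 there. With limma the smaller moves were 4 for the NZO/HlLtJ mean, 4 for its interaction with CAST/EiJ and 3 for sex. Over all genes limma called 7020, 5373 and 148 there. With NZO/HlLtJ alone the count was 2 in females and 1 for diet by sex, where 1303 and 50 of all genes were called. Leaving out 1 library gave 2 to 5 in NZO/HlLtJ females, 1 to 6 in males, 1 to 4 for diet by sex, 1 to 3 for the interaction with C57BL/6J, 0 to 1 for CAST/EiJ against C57BL/6J and 2 to 4 for sex. The calls over all genes with 1 library left out are not reported here. With 1 library left out, the Gcg to Sst difference of NZO/HlLtJ from C57BL/6J ranged from -0.37 to -0.14.

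No paired analysis was possible because replicate numbers follow sample order and pair no libraries. Each of the 7 genes had at least 265 counts in every library. The effect of depth or group size on the calls was not tested.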
